A study of Arabidopsis thaliana with 27 samples.

Results

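SEC5A (AT1G76850), ARA6 (AT3G54840) and ATG8E (AT2G45170) were the 3 vesicle trafficking and autophagy genes taken from the 181 genes that the platform annotation named among the 576 probes of a small Arabidopsis thaliana array. They were chosen by name for their place in the membrane traffic of the cell, and each was read by 1 probe. ATG8E had a higher level 24 h after Psm than 9 h after hrcC, by 1.37 on the log2 scale as a mean over 4 genotypes (SE 0.29, limma adjusted p = 0.000485). That comparison called 64.6% of the named genes, 42.5% of them all as higher. ARA6 was highest in Col-0 leaves given Psm and was lower there in the triple mutant, by -0.72 (SE 0.20, limma adjusted p = 0.00768), a call that was lost when the arrays were scaled in other ways. SEC5A was dim on every array, and none of the 20 limma comparisons called a difference in it. Its mean difference with Psm over the genotypes was called with the experimental set in the fit (-0.30, limma adjusted p = 0.0384), but not with quantile normalization (-0.18, limma adjusted p = 0.350) or at matched times in set 3 (-0.06, limma adjusted p = 0.896).

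All leaves came from 4-week-old plants grown in soil, with 2 leaves per plant pooled from 3 pots, so each array is a pool of plants. The genotypes were the wild type Col-0, the single mutants cbp60h and pad4-1, the cbp60g,cbp60h double mutant and the cbp60g,cbp60h,pad4 triple mutant. CBP60g and CBP60h (the latter also known as SARD1) are transcriptional regulators of salicylic acid synthesis, and PAD4 is a lipase-like protein that acts upstream of salicylic acid in defence. Leaves were infiltrated with 1 of 2 bacteria: Pseudomonas syringae pv. tomato DC3000 hrcC (hrcC), whose type III secretion of effector proteins does not work, or Pseudomonas syringae ES4326 (Psm), which has this secretion. The hrcC leaves taken at 9 h gave 2 arrays each for Col-0, pad4-1 and the double and triple mutants (sets 1 and 2) and 3 arrays for cbp60h (sets 1 to 3). The Psm leaves taken at 24 h gave 3 arrays for each of the same genotypes other than cbp60h (sets 1 to 3). The hrcC leaves taken at 24 h gave 1 array for each of those 4 genotypes, all in set 3. Strain and time therefore differ together in every comparison of Psm at 24 h with hrcC at 9 h, and no leaves without bacteria were among the 27 arrays. A set is an experiment number in the labels, and the labels treat the sets as the replicates.

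The exocyst is a protein complex that tethers secretory vesicles to the plasma membrane before they fuse, and plant cells send defence proteins and wall material to the site of bacterial contact by this route. Rab GTPases mark membrane compartments, and those of the Rab5 class direct traffic among endosomes, the vacuole and the plasma membrane. Autophagy encloses cytoplasm in a double membrane, the autophagosome, and delivers it to the vacuole, and in plants it takes part in the response to bacteria and in leaf senescence. In leaves, bacterial effector proteins are known to act on several steps of this traffic.

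Values are given on the log2 scale of the deposited table, where a difference of 1 is a 2-fold difference in spot brightness. The base was read from the size of the values. Probe brightness cannot rank the genes by RNA level, so each difference is taken within 1 gene. The place of a probe among the other probes is given only to show how dim its signal was. Differences come from limma, a linear model fitted over all 181 named genes, with the p-value adjusted by the Benjamini-Hochberg method over those genes, and a difference was called when the adjusted p was under 0.05. A bulk leaf sample cannot tell fewer cells of a type from less RNA per cell.

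The scale of the arrays moved with the treatment, and this bears on every small difference below. The median over all probes of an array was 4.07 to 4.53 on the 12 Psm arrays, 3.90 to 4.39 on the 11 hrcC arrays at 9 h and 3.94 to 4.15 on the 4 hrcC arrays at 24 h. The median difference between Psm and hrcC at 9 h, as a mean over 4 genotypes, was 0.20 over the named genes and 0.25 over all probes. Probes named as CBP60g, CBP60h or PAD4 were not used here, so the genotypes were not checked, and none of 29 marker names for leaf mesophyll, epidermis, vasculature and root was measured, so the tissue label was not checked either.

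SEC5A is a subunit of the exocyst. Its level ran from 1.23 to 2.52 over the 27 arrays, with a median of 1.89. The probe was below the median of all probes on 27 of 27 arrays and among the dimmest 5% of the 576 probes on 19 of 27.

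After hrcC for 9 h, SEC5A was at 1.74 and 2.31 in Col-0, 2.04 and 2.27 in pad4-1, 1.49 and 1.83 in the double mutant, 1.64 and 2.35 in the triple mutant, and 2.16, 2.19 and 2.26 in cbp60h. After hrcC for 24 h it was at 1.98 in Col-0, 2.28 in pad4-1, 1.67 in the double mutant and 2.52 in the triple mutant. The lowest array was of the double mutant at both times. After Psm for 24 h, sets 1, 2 and 3 were at 1.39, 1.89 and 2.44 in Col-0, 1.82, 1.97 and 1.82 in pad4-1, 1.23, 1.70 and 1.80 in the double mutant, and 1.61, 1.51 and 2.17 in the triple mutant. The spread among the 3 Col-0 arrays was wider than any gap between genotype means after Psm.

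ARA6, also called RABF1, is a plant-specific GTPase of the Rab5 class that works in traffic from endosomes to the plasma membrane. Its level ran from 3.88 to 5.11 over the 27 arrays, with a median of 4.20. After hrcC for 9 h it was at 4.40 and 4.03 in Col-0, 4.04 and 4.11 in pad4-1, 4.27 and 4.76 in the double mutant, 4.03 and 3.88 in the triple mutant, and 4.18, 4.20 and 4.16 in cbp60h. After hrcC for 24 h it was at 4.02 in Col-0, 4.09 in pad4-1, 4.52 in the double mutant and 4.11 in the triple mutant. With hrcC the double mutant held the highest array at both times.

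After Psm for 24 h, sets 1, 2 and 3 of ARA6 were at 5.11, 4.64 and 4.81 in Col-0, 4.62, 4.26 and 4.22 in pad4-1, 4.85, 4.23 and 4.24 in the double mutant, and 4.14, 4.08 and 4.19 in the triple mutant. The 3 Col-0 arrays lay above all arrays of pad4-1 and of the triple mutant, and overlapped the double mutant through its set 1 array. The triple mutant lay below every other array given Psm.

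ATG8E is one of the ubiquitin-like ATG8 proteins, which are joined to the lipid phosphatidylethanolamine on the growing autophagosome and bind cargo receptors there. It had the widest range of the 3 genes, from 3.78 to 7.65 with a median of 5.02. After hrcC for 9 h it was at 5.75 and 4.09 in Col-0, 4.73 and 5.02 in pad4-1, 5.82 and 5.01 in the double mutant, 4.39 and 4.26 in the triple mutant, and 3.96, 3.78 and 4.03 in cbp60h. The set 1 arrays of Col-0 and of the double mutant stood above the other hrcC arrays. After hrcC for 24 h it was at 3.97 in Col-0, 4.61 in pad4-1, 4.65 in the double mutant and 4.10 in the triple mutant.

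After Psm for 24 h, sets 1, 2 and 3 of ATG8E were at 7.65, 6.27 and 6.52 in Col-0, 7.09, 6.35 and 5.64 in pad4-1, 7.24, 6.14 and 4.76 in the double mutant, and 5.97, 5.77 and 5.67 in the triple mutant. Set 1 was the highest of the 3 arrays in each genotype, and the triple mutant had the narrowest spread. The set 3 array of the double mutant was the lowest of the 12 Psm arrays and lay within the range of the hrcC arrays.

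**Figure D1:**
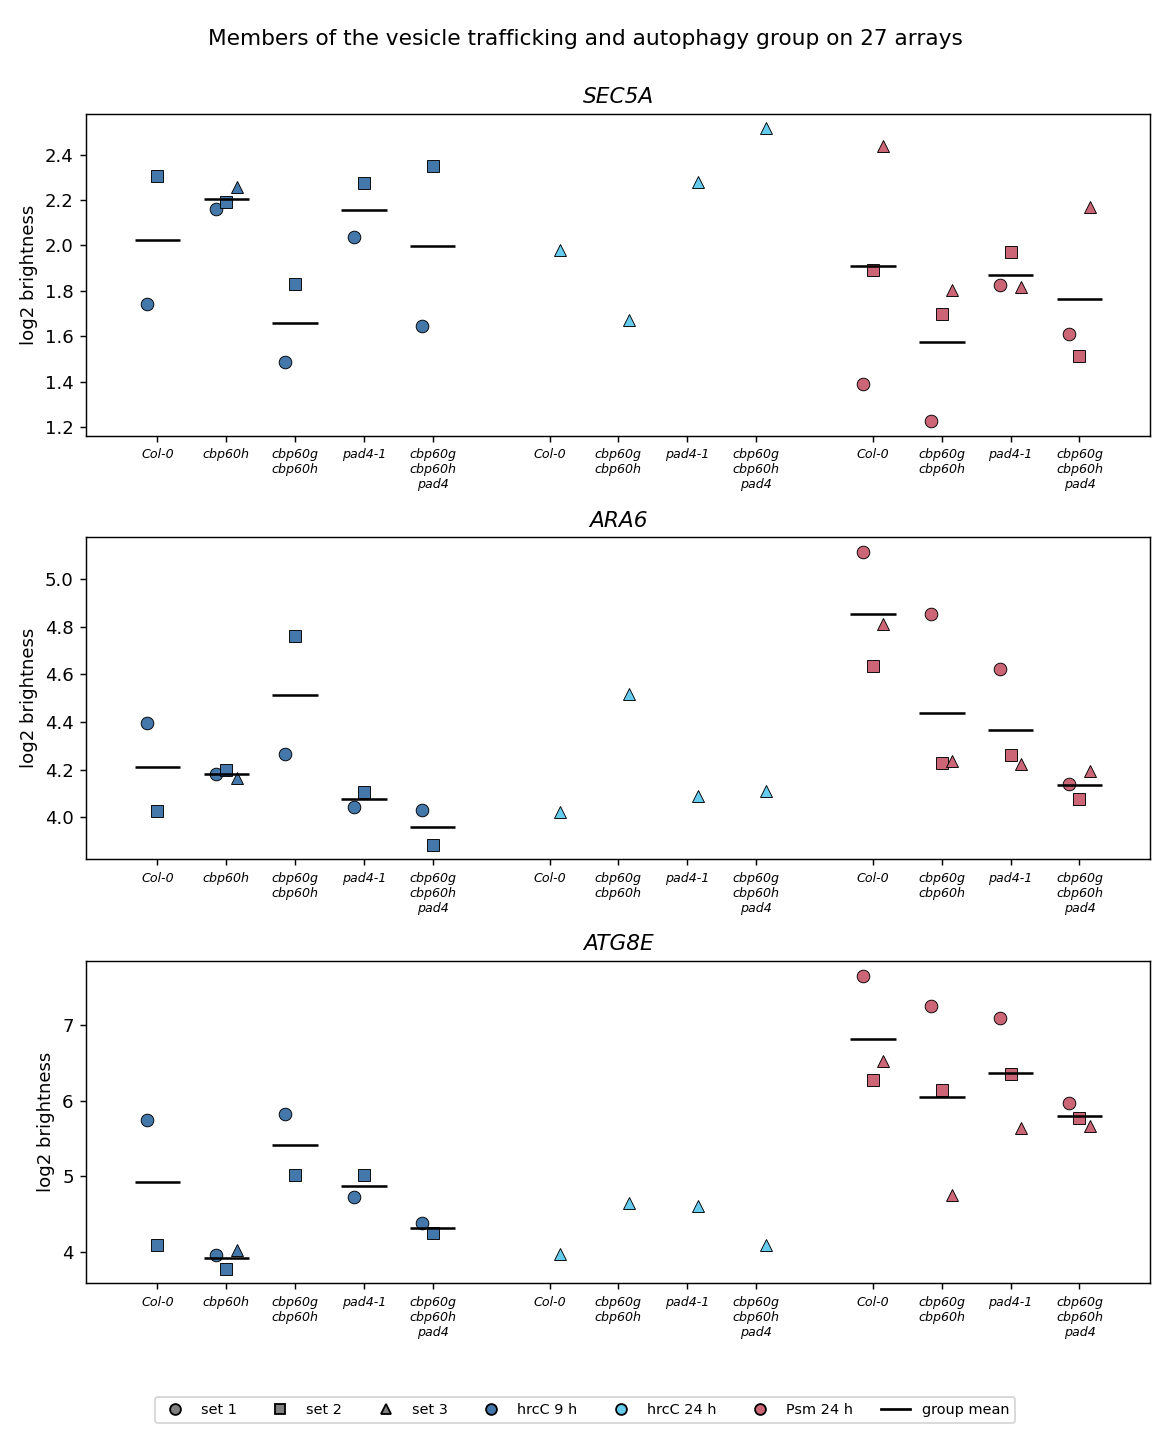
Log2 brightness of SEC5A, ARA6 and ATG8E (vertical axes, each on its own scale) on the 27 arrays, grouped along the horizontal axis by strain, time and genotype, with 1 point per array and 1 symbol per set. ATG8E reached 7.65 in a Col-0 array given Psm, ARA6 was highest in Col-0 given Psm, and the SEC5A arrays of the different treatments overlap.

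The order of the 13 group means differed between the genes. For ATG8E the 4 Psm groups came first, at 6.81 ± 0.73 in Col-0, 6.36 ± 0.72 in pad4-1, 6.05 ± 1.24 in the double and 5.80 ± 0.15 in the triple mutant (SD over 3 arrays). The hrcC groups at 9 h came next, at 5.42 ± 0.57 in the double mutant, 4.92 ± 1.17 in Col-0 and 4.88 ± 0.20 in pad4-1 (SD, n = 2 each). Each neighbour in that order overlapped the next in range. The lowest 6 groups of ATG8E were the 4 hrcC groups at 24 h, the triple mutant at 9 h (4.32 ± 0.09, SD, n = 2) and cbp60h at 9 h (3.92 ± 0.12, SD, n = 3).

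For ARA6, Col-0 given Psm was first at 4.85 ± 0.24 (SD, n = 3). Every array of that group lay above the group next in order, the double mutant after hrcC for 24 h, which was 1 array. The double mutant also held the next 2 places, at 4.51 ± 0.35 after hrcC for 9 h (SD, n = 2) and 4.44 ± 0.36 after Psm (SD, n = 3). Their ranges overlapped each other, and their highest arrays, at 4.76 and 4.85, lay within the range of Col-0 given Psm (4.64 to 5.11). pad4-1 given Psm was next at 4.37 ± 0.22 (SD, n = 3), while the triple mutant given Psm was at 4.14 ± 0.06 (SD, n = 3). The triple mutant after hrcC for 9 h was last, at 3.96 ± 0.10 (SD, n = 2).

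For SEC5A, the triple mutant and pad4-1 after hrcC for 24 h came first, with 1 array each, followed by cbp60h after hrcC for 9 h at 2.20 ± 0.05 (SD, n = 3). The last 3 places were all held by the double mutant, whose lowest group was the one given Psm, at 1.58 ± 0.31 (SD, n = 3). From cbp60h downwards, every neighbour in the order overlapped the next.

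The first comparison was that of Psm at 24 h with hrcC at 9 h. ATG8E rose in Col-0 by 1.89 (SE 0.58, 95% interval 0.67 to 3.11, limma adjusted p = 0.0176), and all Col-0 arrays given Psm lay above both given hrcC. Of the 181 named genes, 33.1% were called in this comparison and 22.7% were called higher, while 34.3% lay higher without overlap, and 15 named genes had a larger increase than ATG8E. The split of called genes was 41 higher and 19 lower as deposited, 34 and 29 after re-centring each array on its median, and 28 and 40 after quantile normalization. The call rested on single arrays: it was lost without the set 1 Psm array (1.47, limma adjusted p = 0.0773) and without the set 2 hrcC array (1.07, limma adjusted p = 0.305).

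ATG8E differed by 1.48 in pad4-1 (SE 0.58, limma adjusted p = 0.0588) and by 1.48 in the triple mutant (SE 0.58, limma adjusted p = 0.0677), with no overlap between the strains in either genotype. The background of called genes was 32.6% in pad4-1 and 26.5% in the triple mutant, and 40.3% and 30.9% of the named genes lay higher with no overlap. With the set as a block in the fit, both differences passed, at 1.72 in pad4-1 (limma adjusted p = 0.00672) and 1.71 in the triple mutant (limma adjusted p = 0.00688). In the double mutant ATG8E differed by 0.63 (95% interval -0.59 to 1.85, limma adjusted p = 0.411), where 42% of the named genes were called. The arrays of the double mutant overlapped through the set 3 array at 4.76.

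Over the 4 genotypes ATG8E rose by a mean of 1.37 (95% interval 0.76 to 1.98, limma adjusted p = 0.000485), and 24 of the 181 named genes had a larger one. This comparison called 64.6% of the named genes (42.5% were called higher), so a call in it is common among the genes on this array. The split was 77 higher and 40 lower as deposited, 48 and 67 after re-centring, and 47 and 69 after quantile normalization. The increase in ATG8E was 1.06 with each array re-centred on its median (limma adjusted p = 0.00330) and 1.01 with quantile normalization (limma adjusted p = 0.00228).

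ARA6 rose in Col-0 by 0.64 (SE 0.22, 95% interval 0.18 to 1.11, limma adjusted p = 0.0291), and 50 named genes had a larger increase. All 3 arrays given Psm lay above both given hrcC, as was so for 34.3% of the named genes. The call was lost with re-centring on the array median (0.44, limma adjusted p = 0.159), with quantile normalization (0.40, limma adjusted p = 0.227), without the set 1 Psm array (0.51, limma adjusted p = 0.108) and without the set 2 hrcC array (0.46, limma adjusted p = 0.267). It was also lost when only the Col-0 arrays entered the fit, with an adjusted limma p of 0.147. In the double mutant ARA6 differed by -0.08 (95% interval -0.54 to 0.39, limma adjusted p = 0.836), in pad4-1 by 0.29 (limma adjusted p = 0.331) and in the triple mutant by 0.18 (limma adjusted p = 0.589). As deposited, the Psm arrays of pad4-1 and of the triple mutant lay above their hrcC arrays, as was so for 40.3% and 30.9% of the named genes. For ARA6 the arrays overlapped after re-centring. These differences of ARA6 then turned to -0.065 in pad4-1 and -0.094 in the triple mutant, and with quantile normalization to -0.054 and -0.163.

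The mean over the 4 genotypes for ARA6 was 0.26 (95% interval 0.03 to 0.49, limma adjusted p = 0.0460). It was close to the shift of the whole array between these treatments, and it turned to -0.05 with re-centring (limma adjusted p = 0.751) and to -0.08 with quantile normalization (limma adjusted p = 0.582). The call was also lost in 13 of the 20 fits that left out 1 array. A direction of ARA6 between Psm and hrcC over all 4 genotypes therefore depends on how the arrays are scaled.

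SEC5A differed by -0.12 in Col-0, -0.28 in pad4-1, -0.08 in the double mutant and -0.23 in the triple mutant, with limma adjusted p-values of 0.820, 0.479, 0.860 and 0.595. In pad4-1 its Psm arrays all lay below its hrcC arrays, as 20.4% of the named genes did. The mean over the genotypes was -0.18 (95% interval -0.49 to 0.13, limma adjusted p = 0.308). It became a called decrease with the set as a block (-0.30, limma adjusted p = 0.0384) and with re-centring on the array median (-0.49, limma adjusted p = 0.00908), but not with quantile normalization (-0.18, limma adjusted p = 0.350). Among 57 other probes in the dimmest 10% of the array, the median of this difference was 0.09 as deposited, and 22 of the 57 were lower. The dim end of the arrays did not move with their median. The 5th percentile had a median of 2.16 on the hrcC arrays at 9 h and 2.14 on the Psm arrays, while the array median went from 4.14 to 4.47. Re-centring on the median thus lowers dim probes with Psm, and the re-centred value of SEC5A includes this shift.

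Within genotype and set, sets 1 and 2 give 8 pairs of a Psm array at 24 h and an hrcC array at 9 h. ATG8E was higher with Psm in 8 of 8 pairs, by 1.12 to 2.36 with a mean of 1.68 (SD 0.43; two-sided exact sign-flip permutation test, p = 0.00781). ARA6 was higher in 7 of 8 pairs, from -0.54 in the double mutant of set 2 to 0.72, with a mean of 0.30 (same exact test, p = 0.0703), but in 4 of 8 after re-centring, with a mean of -0.0090. SEC5A was lower in 8 of 8 pairs, by -0.03 to -0.84 with a mean of -0.32 (SD 0.24; same exact test, p = 0.00781). Of the named genes, 28.7% were higher in all 8 pairs, as ATG8E was, and 14.4% were lower in all 8, as SEC5A was. After re-centring ATG8E was still higher in all 8 pairs. The array median was higher with Psm in each of the 8 pairs, so re-centring lowers every difference. SEC5A, lower in all 8 as deposited, could therefore only stay lower, and its count after re-centring is no further evidence. The smallest p that the 256 sign flips can give is 0.00781, and these 3 p-values are not adjusted. The test takes the 8 pairs as independent, but they come from 2 sets whose arrays vary together, so its p-values are too small.

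In set 3 both strains were sampled at 24 h, with 1 array per genotype and strain. ATG8E was higher with Psm by 2.54 in Col-0, 1.03 in pad4-1, 0.11 in the double mutant and 1.57 in the triple mutant. It rose by a mean of 1.31 in a paired limma fit (SE 0.38, 95% interval 0.46 to 2.16, adjusted p = 0.0246), and all 4 Psm arrays lay above all 4 hrcC arrays. The fit assumes that the 4 genotypes share the strain difference and takes them as its replicates. All its arrays come from 1 set, so its p-values do not cover the spread between sets. That fit called 30.4% of the named genes, 21.5% higher, while 18.8% lay higher without overlap, and 27 named genes had a larger increase than ATG8E. The split was 39 higher and 16 lower as deposited, 25 and 27 after re-centring, and 25 and 28 after quantile normalization. The call was lost with re-centring (0.98, limma adjusted p = 0.0884), with quantile normalization (1.01, limma adjusted p = 0.0814) and without either Col-0 array (0.90, limma adjusted p = 0.118). After re-centring ATG8E was higher in 3 of the 4 pairs, at -0.30 in the double mutant.

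ARA6 in set 3 was higher with Psm by 0.79 in Col-0, 0.13 in pad4-1 and 0.08 in the triple mutant, and lower in the double mutant, at -0.28. Its mean was 0.18 (95% interval -0.43 to 0.79, limma adjusted p = 0.675), and it turned to -0.15 with re-centring and to -0.17 with quantile normalization. SEC5A differed by 0.46 in Col-0, -0.46 in pad4-1, 0.13 in the double mutant and -0.35 in the triple mutant, with a mean of -0.06 (95% interval -0.66 to 0.55, limma adjusted p = 0.896). SEC5A was thus lower in 2 of the 4 pairs of set 3 as deposited. After re-centring it was lower in 3 of 4, with a mean of -0.39, and with quantile normalization the mean was -0.24.

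**Figure D2:**
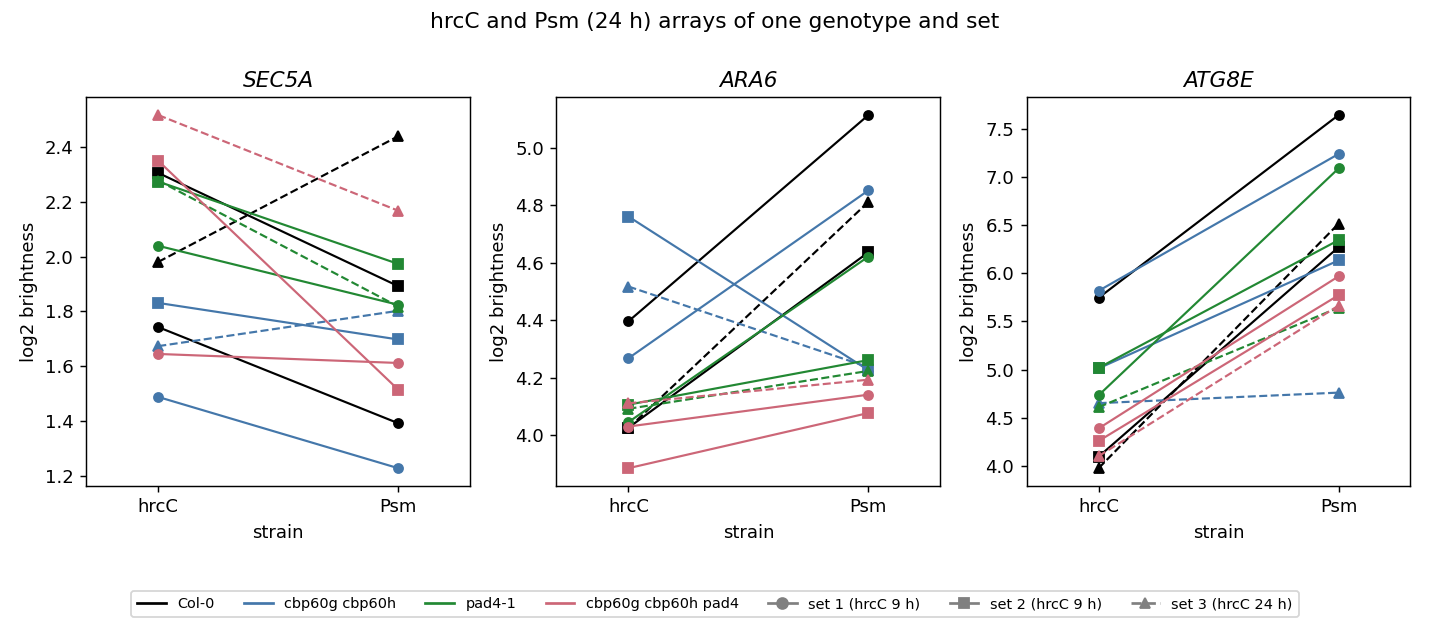
Log2 brightness of each gene (vertical axes) with hrcC and with Psm at 24 h (horizontal axis), with 1 line joining the arrays of one genotype and set; the hrcC arrays are at 9 h in sets 1 and 2 and at 24 h in set 3. All ATG8E lines climb as deposited, by 0.11 to 2.54, while the ARA6 and SEC5A lines run in both directions.

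The hrcC arrays of these 4 genotypes at 24 h and at 9 h differ in set as well as in time, so a fit of those arrays alone cannot tell time from set. ATG8E differed by -0.55 between 24 h and 9 h (95% interval -1.15 to 0.05, limma adjusted p = 0.264), ARA6 by -0.00 (95% interval -0.33 to 0.32, limma adjusted p = 0.999) and SEC5A by 0.15 (95% interval -0.25 to 0.55, limma adjusted p = 0.654). Of the named genes, 2.21% were called. In a fit of all 27 arrays with the set as a block, which takes the set difference from the Psm and cbp60h arrays, the ATG8E difference was 0.15 (SE 0.39) and that of SEC5A was -0.20 (limma adjusted p = 0.867 and 0.677), each of the opposite sign.

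The second comparison was that of the mutants with Col-0 after Psm. The mutants share the 3 Col-0 arrays, so their differences are not independent. ARA6 fell by 0.72 in the triple mutant (95% interval -1.13 to -0.30, limma adjusted p = 0.00768), with no overlap. Of the named genes, 34.3% were called in that comparison, 24.3% lower, 28.2% lay lower without overlap, and 46 named genes had a larger negative difference. The split was 18 higher and 44 lower as deposited, 27 and 35 after re-centring, and 32 and 34 after quantile normalization. With each array re-centred on its median the difference was -0.50 (limma adjusted p = 0.0660), and with quantile normalization it was -0.50 (limma adjusted p = 0.0842). The median difference over all probes in this comparison was -0.14.

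ARA6 differed from Col-0 by -0.42 in the double mutant (95% interval -0.83 to -0.0027, limma adjusted p = 0.295), where 6.63% of the named genes were called. In pad4-1 it differed by -0.49 (SE 0.20, limma adjusted p = 0.187), where 2.76% were called and 14.9% lay lower without overlap, as ARA6 did. Within sets 1, 2 and 3 the difference was -0.49, -0.38 and -0.59 in pad4-1, -0.26, -0.41 and -0.58 in the double mutant, and -0.97, -0.56 and -0.62 in the triple mutant. Within a set the 3 mutants share 1 Col-0 array, so these values are not independent. The share of named genes with a negative sign throughout was not counted, so the shared sign is not read as particular to ARA6. With hrcC at 9 h, the differences of ARA6 from Col-0 in sets 1 and 2 ran in both directions. They were -0.35 and 0.08 in pad4-1, -0.13 and 0.74 in the double mutant, and -0.37 and -0.14 in the triple mutant. With hrcC at 24 h, in set 3, the differences of ARA6 from Col-0 were 0.07 in pad4-1, 0.49 in the double mutant and 0.09 in the triple mutant.

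ATG8E differed from Col-0 after Psm by -0.77 in the double mutant (SE 0.52), -0.45 in pad4-1 and -1.01 in the triple mutant (95% interval -2.10 to 0.08), with limma adjusted p-values of 0.466, 0.780 and 0.148. With 1 array left out in turn, these ran from -1.36 to -0.12 in the double mutant (the latter without its set 3 array), from -0.82 to -0.034 in pad4-1 (the latter without the set 1 Col-0 array) and from -1.28 to -0.59 in the triple mutant. The 3 ATG8E arrays of the triple mutant lay below all 3 of Col-0 as deposited, and overlapped them after re-centring. Within sets 1, 2 and 3 the differences of ATG8E were -0.55, 0.07 and -0.87 in pad4-1, -0.40, -0.14 and -1.76 in the double mutant, and -1.68, -0.50 and -0.85 in the triple mutant. ATG8E was thus lower than in Col-0 in each set in the double and triple mutants, and in sets 1 and 3 in pad4-1.

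SEC5A differed by -0.33 in the double mutant (95% interval -0.88 to 0.22, limma adjusted p = 0.533), by -0.04 in pad4-1 (95% interval -0.59 to 0.51, limma adjusted p = 0.972) and by -0.14 in the triple mutant (95% interval -0.69 to 0.41, limma adjusted p = 0.737). The last of these was 0.07 with re-centring and 0.05 with quantile normalization. None of the 3 passed, and each interval includes differences in both directions.

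The triple mutant was also set against its parents after Psm. ARA6 differed by -0.30 from the double mutant (limma adjusted p = 0.288) and by -0.23 from pad4-1 (limma adjusted p = 0.466), lying below all arrays of both as deposited. After re-centring the groups overlapped and the differences were -0.017 and 0.011, and with quantile normalization they were -0.010 and -0.019. Of the named genes, 30.9% were called against the double mutant and 21.5% against pad4-1, and 24.9% and 21.5% lay lower without overlap. ATG8E differed by -0.24 and -0.56, and SEC5A by 0.19 and -0.11, with limma adjusted p-values of 0.790, 0.504, 0.644 and 0.841. The departure of the triple mutant from the sum of the double mutant and pad4-1 effects was 0.18 for ARA6, 0.21 for ATG8E and 0.22 for SEC5A (limma adjusted p = 0.806, 0.924 and 0.818), where 5.52% of the named genes were called.

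**Figure D3:**
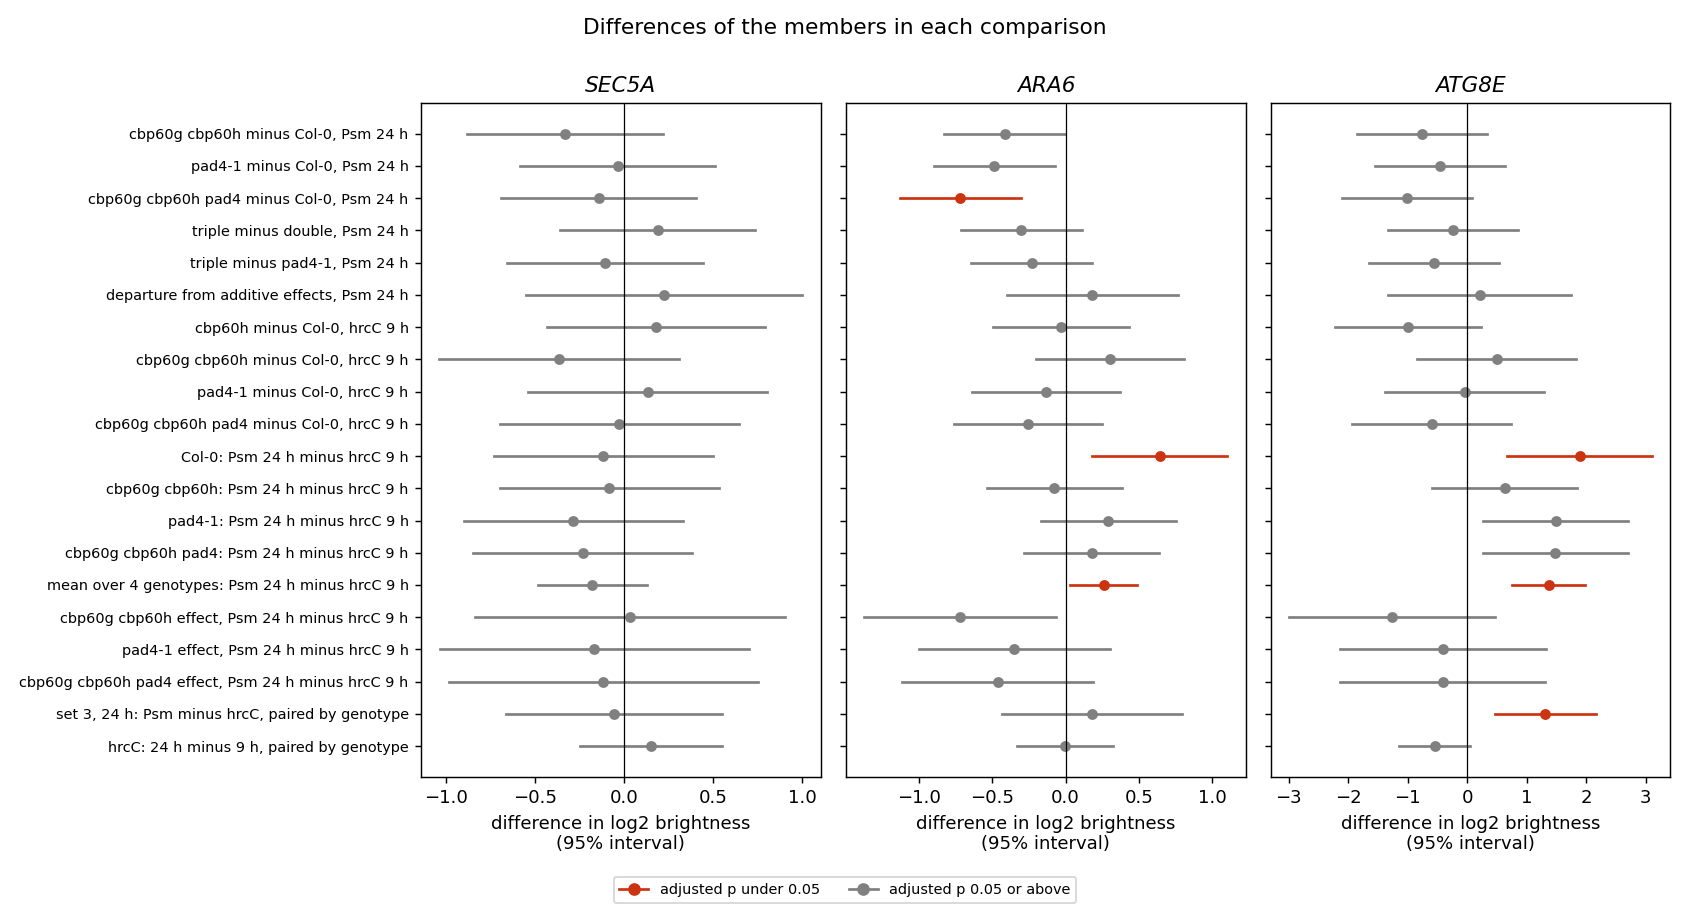
Differences in log2 brightness (horizontal axes) of the 3 genes in each comparison (vertical axis), with 95% intervals as bars and called and uncalled differences marked by colour. The called differences are ATG8E and ARA6 higher with Psm in Col-0 and over the 4 genotypes, ATG8E higher in set 3, and ARA6 lower in the triple mutant given Psm.

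After hrcC for 9 h no mutant differed from Col-0 in these genes by the test. The largest difference was that of ATG8E in cbp60h, at -0.997 (SE 0.58, 95% interval -2.22 to 0.22, limma adjusted p = 0.323), with the 3 cbp60h arrays below both Col-0 arrays. It was -0.17 without the set 1 Col-0 array and -1.82 without the set 2 Col-0 array. In that comparison 13.8% of the named genes were called and 18.8% lay lower without overlap. ATG8E differed by -0.05 in pad4-1, 0.50 in the double mutant and -0.60 in the triple mutant. ARA6 differed by 0.30 in the double mutant and by -0.03 to -0.25 in the other 3 genotypes, and SEC5A by -0.36 in the double mutant and by -0.03 to 0.18 in the other 3. Of the named genes, limma called 0 in the double mutant and 0 in pad4-1 (15 and 10 at an unadjusted p under 0.05, and 9 and 6 called among all 576 probes), and 6.63% in the triple mutant.

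Whether a mutant's difference from Col-0 was the same with Psm as with hrcC at 9 h was tested by an interaction term. For ARA6 it was -0.72 in the double mutant (SE 0.31, 95% interval -1.37 to -0.07, limma adjusted p = 0.282), since the double mutant mean was above Col-0 with hrcC and below it with Psm. With hrcC at 9 h the double mutant differed from Col-0 by -0.13 in set 1 and 0.74 in set 2. The ARA6 interaction term was -0.35 in pad4-1 and -0.46 in the triple mutant (limma adjusted p = 0.970 and 0.598). For ATG8E it was -1.26 in the double mutant (95% interval -2.99 to 0.46, limma adjusted p = 0.577; -2.09 without the set 1 and -0.44 without the set 2 Col-0 array given hrcC), -0.41 in pad4-1 and -0.41 in the triple mutant. For SEC5A it was between -0.17 and 0.03. For the double mutant limma called 0 of the 181 named genes (23 at an unadjusted p under 0.05, and 2 called among all 576 probes), for pad4-1 0.552% and for the triple mutant 3.31%, so a difference in response between genotypes was not shown for these genes.

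**Figure D4:**
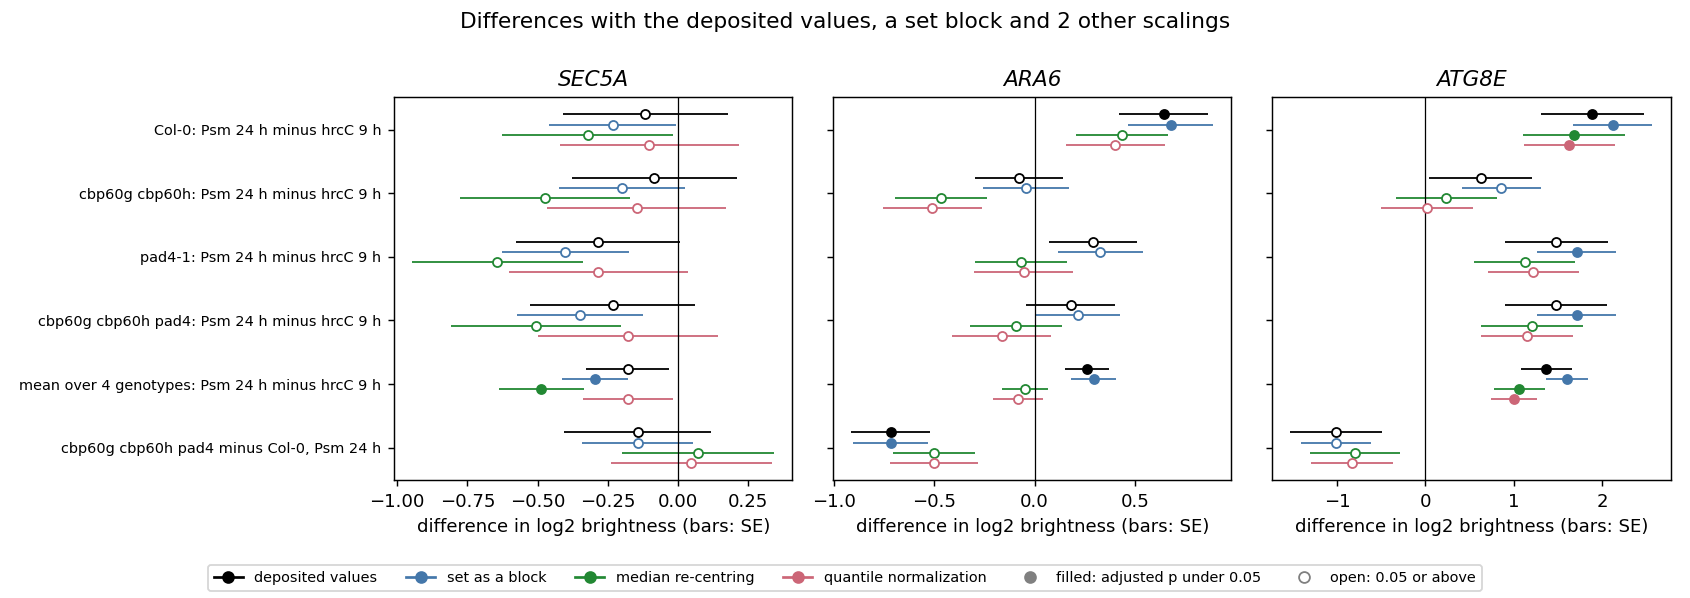
Differences in log2 brightness (horizontal axes) of the 3 genes in selected comparisons (vertical axis), from the deposited values, with the set as a block, and with the arrays re-centred on their median or quantile normalized; bars are SE. The ATG8E mean over genotypes stays between 1.01 and 1.60, while the ARA6 mean moves from 0.26 to -0.05 and -0.08.

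The sets differed among the Psm arrays. In a fit with genotype and set as terms, chosen after the values were seen, ATG8E was higher in set 1 than in set 3 by 1.34 (SE 0.30, limma adjusted p = 0.0342), where 8.29% of the named genes were called. Set 1 stood above set 2 by 0.86 (limma adjusted p = 0.130, with 4.97% of the named genes called) and set 2 above set 3 by 0.48 (limma adjusted p = 0.400, with 1.1% called). SEC5A ran the other way, at -0.54 between sets 1 and 3 (SE 0.18, limma adjusted p = 0.0797). ARA6 differed by 0.32 between sets 1 and 3 (limma adjusted p = 0.160).

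Other genes of these pathways were sought from 5 lists of 143 names. The exocyst list of 37 names was measured by SEC5A alone, the Rab and endosome list of 33 by ARA6 alone and the autophagy list of 40 by ATG8E alone. The lists of 17 SNARE proteins and their partners in secretion and of 16 coat and translocon proteins had no measured member. Each list was thus read through 1 named probe at most, and the 395 unnamed probes were not matched to the lists.

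Over the 27 arrays, which share genotypes, sets and array-wide shifts, ARA6 and ATG8E varied in the same direction and SEC5A in the opposite one as deposited. Pearson's r was 0.72 between ARA6 and ATG8E, -0.43 between SEC5A and ARA6, and -0.58 between SEC5A and ATG8E. Once each array was re-centred on its median, these were 0.43, -0.15 and -0.68, so the relation of SEC5A to ARA6 depends on the scaling. The named genes most like ATG8E over the 27 arrays were AT2G28400 (r = 0.90), BGLU45 (r = 0.87), a beta-glucosidase, and AT4G27280 (r = 0.82), and the same 3 came first after re-centring. Those most like SEC5A were AT4G15475 (r = 0.77), AT5G60390 (r = 0.70) and AT5G15610 (r = 0.69), again the same 3 after re-centring. Those most like ARA6 were AT5G39670 (r = 0.82), AT3G13950 (r = 0.79) and AT5G52760 (r = 0.74). After re-centring the first 3 for ARA6 were others, led by AT2G22690 (r = 0.57), and AT5G39670 was at 0.46. The median r with the other 180 named genes was 0.21 for ATG8E, 0.17 for ARA6 and -0.17 for SEC5A. Over the 13 group means the first 3 for SEC5A were others, led by AT3G22440 (r = 0.80). BGLU45 and AT2G28400 stayed among the first 3 for ATG8E there, while AT4G27280 did not, and AT5G39670 came first for ARA6.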

How the data were processed

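The deposited table holds 1 log2 brightness value per probe and array for 27 one-colour arrays (Alexa555, per the labels' protocols). The log base was read from the values (0.663 to 11.4). For the scanner, the background correction and any normalization by the authors, nothing was stated: not given in the sources used here. The values were used as deposited, with 0 columns left out. The highest correlation between 2 arrays was 0.991 and 0 were identical. The platform annotation names 1 gene for 181 probes and none for the other 395.

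Differences were fitted with limma 3.58.1 in R 4.3.3 as group means over the 23 arrays of the 9 replicated groups, with Benjamini-Hochberg adjustment over the 181 named genes. The 2 comparisons with unreplicated groups used a genotype term. The fit was tested on simulated data. Exact tests used Python 3.11.15. Set numbers pair the arrays, since the labels name them as experiments. Deviations of same-set arrays correlated at 0.14 to 0.62 under Psm and -0.12 to 0.44 under hrcC at 9 h. The set block was an alternative. Named are the 3 genes, measured genes of the 5 lists, and the 3 most similar genes to each. Members and lists were chosen with earlier results of these data known. Probe sequences were not used, so cross-hybridisation within gene families was not tested. Other alternatives were 2 scalings, all probes, a filter on dim genes, a spread trend, only the groups compared and each array left out. The number of arrays limits the precision.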

Additional observations from a re-analysis of the deposited data

How the results depend on the processing

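Over 60 results (3 genes in 20 comparisons), 374 values under other settings kept their side of the threshold, 7 newly passed it, 11 lost the call and 2 reversed. With arrays left out in turn, 427 were unchanged in call, 1 newly passed and 19 lost the call. Under re-centring and quantile normalization, ARA6 over the 4 genotypes reversed to -0.047 and -0.081, ARA6 in the triple mutant given Psm was -0.50 and -0.50, ARA6 in Col-0 was 0.44 and 0.40, and ATG8E in set 3 was 0.98 and 1.01, none of them called. SEC5A over the 4 genotypes was called with re-centring (-0.49), which lowers dim probes with Psm, and with the replicate block (-0.30). The exact test over pairs (-0.32) is counted as passing by its unadjusted p, which is too small since the pairs are not independent. The replicate block also called ATG8E in pad4-1 (1.72) and in the triple mutant (1.71), and changed no other call. With only the groups compared, ATG8E in pad4-1 (1.48) and in the triple mutant (1.48) passed, while ARA6 in Col-0 (0.64) and over the 4 genotypes (0.26) did not. ARA6 over the 4 genotypes also missed the threshold with all probes (0.26, limma adjusted p = 0.0508), with the filter on dim genes (0.26, limma adjusted p = 0.0504) and in the exact test (0.30). The cause was not tested.

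With arrays left out in turn, ARA6 over the 4 genotypes ran from 0.20 to 0.32 and lost its call in 13 of 20 cases, ARA6 in Col-0 from 0.46 to 0.83 and ARA6 in the triple mutant given Psm from -0.83 to -0.59. ATG8E ran from 1.07 to 2.72 in Col-0, from 1.12 to 1.84 in pad4-1 (called without its set 3 Psm array, limma adjusted p = 0.0351), from 0.90 to 1.71 in set 3 and from 1.16 to 1.58 over the 4 genotypes. ATG8E over the 4 genotypes and ARA6 in the triple mutant kept their calls in each of these.

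The background counts of called genes moved as well. Among all 576 probes they rose in each comparison other than the pad4-1 interaction (1 to 0), for example from 117 to 350 for the mean over 4 genotypes. With only the groups compared, they went from 25 to 0 for cbp60h after hrcC, from 12 to 7 for the double mutant given Psm, from 12 to 7 for the triple mutant after hrcC (4 after re-centring) and from 10 to 4 for the departure from additive effects (1 under either scaling). The filter on dim genes left 6 for the double mutant and 3 of 5 for pad4-1 given Psm. The filter also removed SEC5A, and the block could not be fitted in set 3 alone. The fit of 27 arrays with the block called 1 gene in place of 4 between hrcC times.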

Other observations

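A search of the annotation for membrane traffic terms, made after values were seen, found 2 further named genes. PRA1.B4 (AT2G38360) is annotated as a prenylated RAB acceptor, a family of membrane proteins that bind Rab GTPases. In Col-0, pad4-1 and the double and triple mutants its level ran from 2.41 to 3.31 with a median of 2.83 after hrcC for 9 h, from 2.23 to 3.31 with a median of 3.10 after hrcC for 24 h, and from 2.62 to 4.24 with a median of 3.46 after Psm. VHA-A3 (AT4G39080) is annotated as a subunit of the vacuolar proton pump, which acidifies the vacuole. Its level ran from 2.13 to 2.62 with a median of 2.28, from 2.31 to 2.65 with a median of 2.63, and from 2.01 to 2.45 with a median of 2.31 in the same order. Over the 4 genotypes the treatments overlapped for both genes. In the double mutant PRA1.B4 was at 3.77 to 4.11 after Psm, above hrcC at 9 h (2.78 and 3.31) and 24 h (3.31). It stayed above after re-centring, at -0.76 or higher against -0.78 or lower. In pad4-1 it was at 3.18 to 4.24 after Psm, above hrcC at 9 h (2.66 and 2.88) and 24 h (3.12). After re-centring the pad4-1 arrays overlapped. In Col-0 and the triple mutant its Psm arrays overlapped those of hrcC at 9 h. Against hrcC at 9 h, 38.7% of the named genes lay higher with Psm without overlap in the double mutant, and 40.3% in pad4-1. Such a separation is thus common on this array. These differences of PRA1.B4 were not tested.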
